A study of Mus musculus with 14 samples.

Results

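Hmga2, Ccnd1, Trp53 and Cdkn1a encode 4 regulators of cell proliferation, and the data give read counts at each position where their mRNAs end. Their 3' ends were taken as all sites of the deposited table inside 1 window per gene (mm9 build, 1 chromosome and strand each). The windows hold 17 of the 33590 sites in the table: 4 for Hmga2, 7 for Ccnd1, 4 for Trp53 and 2 for Cdkn1a. No window was empty, but 3 of the 4 Trp53 ends had few counts. The table itself names no genes, so the assignment rests on position alone. Ends are numbered from 5' to 3' along the mRNA.

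The study measured mRNA 3' ends in 3T3 cells, a mouse fibroblast line, by 2P-Seq, which sequences cDNA from the border of the poly(A) tail. The time course consists of 2 untreated control libraries and 1 library each after 1, 2, 4 and 8 h with actinomycin D at 10 µg/ml, a drug that blocks transcription. The polysome experiment consists of 6 libraries, each from 1 fraction of a sucrose gradient that sorts mRNAs by the number of ribosomes they carry. The other 2 samples of the series, 3P-Seq libraries of 3T3 and mES cells, were not analysed here. The fraction columns are named 0, 1, 2.5, 4.5, 7.5 and 12, and these numbers were read as ribosomes per mRNA, rising from light to heavy. Library totals ran from 4045420 to 6433503 counts in the time course and from 1663346 to 11575417 over the gradient. The labels do not state whether the controls were separate cultures, and every time and fraction is a single library. The p-values therefore measure only the scatter of these libraries about a straight line, which may be technical.

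Cyclin D1, the product of Ccnd1, activates the cyclin-dependent kinases that start the cell cycle, and Hmga2 encodes a chromatin protein that bends AT-rich DNA and favours growth. Trp53 encodes p53, a transcription factor that halts the cycle after damage, and Cdkn1a encodes p21, a kinase inhibitor that p53 switches on. The 3' untranslated region (3' UTR) of an mRNA holds binding sites for microRNAs and for proteins that shorten its life. An end further upstream leaves such sites out.

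The microRNA target sites below are shown because 3' ends of a gene can differ in which of them an mRNA carries. The let-7 family is well known to act on Hmga2, and the miR-15/16 and miR-17/20 families on cell cycle mRNAs. Mature sequences are those of RefSeq (GRCm38.p6), with the seed (bases 2 to 8) in capitals.
mmu-let-7a-5p: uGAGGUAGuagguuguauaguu
mmu-miR-16-5p: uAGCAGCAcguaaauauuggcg
mmu-miR-17-5p: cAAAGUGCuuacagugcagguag
The complements of these seeds were searched on the sense strand of 1 GENCODE 3' UTR model per gene (GRCm38), with CTACCTC for let-7, TGCTGCT for miR-15/16 and GCACTTT for miR-17/20. Capitals mark the match.
Hmga2 let-7 site 1: gccgacattcaatttCTACCTCagca
Hmga2 let-7 site 2: ccccactcctcaataCTACCTCtgaa
Hmga2 let-7 site 3: ctgatttgcaaggaaCTACCTCcaca
Hmga2 let-7 site 4: aatcaaaacacactaCTACCTCttaa
Cdkn1a miR-17/20 site: cctcagacctgaataGCACTTTggaa
Cdkn1a miR-15/16 site: gttaatctggtgatcTGCTGCTcttt
Ccnd1 miR-17/20 site: ccattccatttcaaaGCACTTTtggt
Ccnd1 miR-15/16 site: ttgtgcatgccaccaTGCTGCTggcc

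The Hmga2 model has a 3' UTR of 2977 nt with 4 let-7 matches, on the minus strand of chromosome 10 in GRCm38 at chr10:120364225-120364231, chr10:120362988-120362994, chr10:120362550-120362556 and chr10:120361692-120361698. Counted back from the last base of the model they lie 2950, 1713, 1275 and 417 nt away. Of 994 other 3' UTRs within 10% of this length, 14.1% hold at least 1 CTACCTC and 0 hold 4 or more. The other 3 genes have 0. Cdkn1a, with a 3' UTR of 1334 nt, has 1 miR-17/20 match (plus strand, chr17:29099829-29099835) and 1 miR-15/16 match (chr17:29100089-29100095), 892 and 632 nt before its last base. Among 1331 3' UTRs of like length, 13.4% hold GCACTTT and 22.7% hold TGCTGCT. Ccnd1, with 2676 nt, also has 1 of each (minus strand, chr7:144931676-144931682 and chr7:144930395-144930401), 1745 and 464 nt before its last base. Among 1090 3' UTRs of like length, 21.6% hold GCACTTT and 36.7% hold TGCTGCT. Hmga2 has 1 further GCACTTT, and the Trp53 3' UTR of 441 nt has no match to any of the 3 seeds. The AU-rich pentamer ATTTA occurs 3 times in Hmga2, 5 times in Ccnd1, once in Trp53 and 4 times in Cdkn1a. A match is a description of the letters, and none was placed against the mm9 positions of the ends, because the builds differ.

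Each gene had 1 end that took most of its counts. For Hmga2 this was end 4, the last of 4, at position 119798323 on the minus strand of chromosome 10, with 1724 and 2182 counts in the controls. End 3 lies 606 nt, end 2 lies 2719 nt and end 1 lies 100450 nt upstream of it. The spacing of end 2 is less than the length of the 3' UTR model, whereas that of end 1 is many times longer than it. End 2 had 121 and 147 counts in the controls, end 3 had 29 and 46, and end 1 had 10 and 25, so end 4 held 91.5% and 90.9% of the gene's counts.

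For Ccnd1 the main end was end 7, the last of 7, at position 152115836 on the minus strand of chromosome 7, with 855 and 1093 counts in the controls. Ends 1 to 6 lie 2548, 2383, 1898, 1820, 773 and 64 nt upstream, all within the length of the 3' UTR model. The 6 upstream ends together held 17.2% and 14.7% of the gene's counts in the controls, the largest share of alternative ends among the 4 genes. End 6 had 60 and 54 counts, end 2 had 46 and 54, end 3 had 33 and 26, end 5 had 17 and 29, and end 4 had 12 and 23. End 1, with 9 and 2, fails the authors' filter.

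Trp53 was read almost wholly at end 4, at position 69405373 on the plus strand of chromosome 11, with 3238 and 6219 counts in the controls, or 99.0% and 99.7% of the gene's counts. Its ends 1, 2 and 3 lie 9694, 9526 and 8046 nt upstream, far beyond the last exon of 523 nt in the gene's model. End 2 had 17 and 9 control counts and end 3 had 15 and 6. End 1 had 0 and 4, fails the authors' filter, and totalled 9 counts over the time course and 9 over the gradient. Cdkn1a had a main end 2 at position 29237666 on the plus strand of chromosome 17, with 2773 and 3060 control counts. Its end 1, 1187 nt upstream, had 85 and 59, or 2.97% and 1.89% of the gene. The spacing of the Cdkn1a ends exceeds the distance of both microRNA matches from the end of the model (892 and 632 nt). The 2719 nt spacing of Hmga2 end 2 exceeds the let-7 distances of 1713, 1275 and 417 nt but not that of 2950 nt. These compare lengths only: the main ends were not matched to the last base of the models. Whether a shorter form leaves out a match was not tested. Across the 4 windows, 15 of the 17 ends pass the authors' filter, 14 had at least 60 counts in the time course and 15 had at least 60 over the gradient, the minimum for a test. Pseudogenes named Hmga2-ps1 and Trp53-ps are listed in the mouse annotation, and the sources used here do not say how reads with several matches were counted, so the Hmga2 and Trp53 counts carry that uncertainty.

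**Figure D1:**
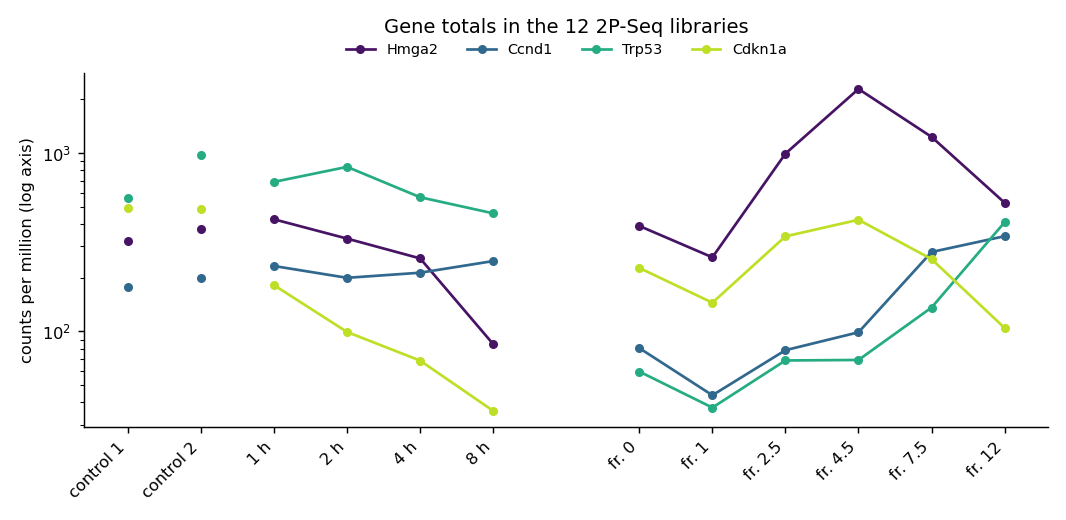
CPM, counts scaled to equal library totals (log axis), for the 4 gene totals in each of the 12 libraries; points are single libraries, and lines join the treated times and the fractions. Cdkn1a falls from 489 and 485 in the controls to 35.8 at 8 h, and Hmga2 peaks at 2282 in fraction 4.5.

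The first comparison asks how fast each mRNA was lost once transcription was blocked. Cdkn1a was lost fastest and Hmga2 next, Trp53 fell slowly, and Ccnd1 showed no net loss over 8 h. Counts were divided by the library factors in the authors' file header and summed over the ends of each gene. In such bulk RNA, fewer cells with an mRNA and less of it per cell cannot be told apart.

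Cdkn1a, the p21 mRNA, stood at 3068 and 3119 scaled counts in the controls and at 1203, 614, 392 and 183 after 1, 2, 4 and 8 h. Every treated library lay below both controls, in the order of time. After 1 h 38.9% of the control mean was left, less than in all but 5.22% of the 7128 loci with at least 200 control counts, whose median was 96.5%. A locus here is a group of ends within 2000 nt of each other on 1 strand. The loss was steepest at the start: on the log2 scale it fell by 1.36 in the first hour, by 0.97 in the second, and by 0.27 per hour between 4 and 8 h. A straight line therefore describes it poorly, and the half-life was 2.01 h from a log-linear fit but 0.828 h from an exponential fit by least squares. At 8 h 5.93% was left.

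Hmga2 had 2023 and 2400 scaled counts in the controls and 2813, 2050, 1465 and 434 after 1, 2, 4 and 8 h. The 1 h library was above both controls, at 127% of their mean, the 2 h library lay between them, and the 4 h and 8 h libraries were below both. At 8 h 19.6% was left, against a median of 36.8% over the same 7128 loci. Its half-life was 3.33 h by the log-linear fit and 4.83 h by the exponential fit.

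Trp53 had 3511 and 6238 scaled counts in the controls and 4561, 5173, 3226 and 2345 afterwards. Control 2 was 1.78-fold above control 1, a higher ratio than in 94.6% of the 7128 loci, while those of the other 3 genes differed by 1.19-fold or less. The 1 h and 2 h libraries lay between the controls and the 4 h and 8 h libraries below both. At 8 h 48.1% of the control mean was left, and the half-life was 7.54 h (log-linear) or 7.78 h (exponential).

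Ccnd1 had 1108 and 1281 scaled counts in the controls and 1540, 1236, 1218 and 1267 after 1, 2, 4 and 8 h. The 1 h library was above both controls and the other 3 lay between them. At 8 h 106% of the control mean was left, more than in 87.1% of the 7128 loci, and no half-life is given because no fall was measured.

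In edgeR's quasi-likelihood test of a slope on hours, fitted over 10731 loci with Benjamini-Hochberg adjustment, 3 of the 4 gene totals fell. Of all loci 60% fell and 2.41% rose, so a fall is what most mRNAs showed. The slope was -0.51 ± 0.08 log2 per hour (SE) for Cdkn1a (adjusted p = 0.00070), -0.30 ± 0.05 for Hmga2 (adjusted p = 0.00031) and -0.14 ± 0.04 for Trp53 (adjusted p = 0.0107), beside a median of -0.20 over all loci. Ccnd1 had -0.0025 ± 0.029 (adjusted p = 0.944), and 84.8% of loci had a lower slope. The Hmga2 and Trp53 calls were lost without the 8 h library, the longest time. The Hmga2 slope was then smaller, at -0.16 ± 0.07 (adjusted p = 0.0870). The Trp53 slope hardly moved, at -0.13, but its SE grew to 0.08 (adjusted p = 0.232). The share of all loci called without the 8 h library is not given here. With TMM, which measures each mRNA against the rest of the library and moves the median slope to -0.04, 31.7% of loci fell and 23.7% rose. On that scale Cdkn1a had -0.35 (adjusted p = 0.0038) and Hmga2 -0.13 (adjusted p = 0.0317), Trp53 was at 0.02 (adjusted p = 0.609), and Ccnd1 rose at 0.16 (adjusted p = 0.00069).

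The ends of a gene were then followed one by one. Of the 14 ends tested 5 fell, against 52.7% of all 16913 ends tested, and 1 rose, against 2.71%. Without the 8 h library 2 fell, both of them Cdkn1a ends, and 1 rose, Ccnd1 end 1 (slope 0.56, adjusted p = 0.0469). That end fails the authors' filter and had 9 and 2 control counts. The share of all ends called without this library is not given here. With TMM 2 fell and 4 rose, the latter being Ccnd1 ends 2, 4, 6 and 7. On the TMM scale 31.7% of all loci fell and 23.7% rose, so a rise was common there. The Cdkn1a end 2 had 2977 and 3060 scaled counts in the controls and 1162, 588, 362 and 162 after 1, 2, 4 and 8 h, a slope of -0.53 ± 0.08 (adjusted p = 0.00077). The shorter form, end 1, had 91.3 and 59 in the controls and 40.1, 26.4, 29.4 and 21.5 afterwards, a slope of -0.22 ± 0.07 (adjusted p = 0.0213). This call was lost without control 1 (-0.16, adjusted p = 0.0951) and with TMM (-0.07, adjusted p = 0.430). Both forms dropped in the first 2 h, but end 1 kept 28.6% of its control mean at 8 h and end 2 kept 5.36%.

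Among the Hmga2 ends, end 4 went from 1851 and 2182 scaled counts to 2594, 1831, 1278 and 358, a slope of -0.32 ± 0.05 (adjusted p = 0.00014). End 2, the form shorter by 2719 nt, went from 130 and 147 to 139, 114, 120 and 55.6, a slope of -0.15 ± 0.05 (adjusted p = 0.0206). End 2 thus kept 82.5% and 86.7% of its control mean at 2 h and 4 h, and 40.2% at 8 h against 17.7% for end 4. End 3 went from 31.1 and 46 to 67.2, 72.9, 53.2 and 15.2 (slope -0.16 ± 0.10, adjusted p = 0.184) and end 1 from 10.7 and 25 to 13, 31.7, 13.6 and 5.06 (slope -0.19 ± 0.12, adjusted p = 0.189). Of Trp53 only end 4 had enough counts, with a slope of -0.14 ± 0.04 (adjusted p = 0.0098). Its ends 2 and 3 both reached 0 counts at 8 h, from 17 and 9 and from 15 and 6 in the controls, under the minimum of 60 counts. With no count minimum end 2 fell, at -0.74 ± 0.21 (adjusted p = 0.0049), and end 3 had -0.39 ± 0.18 (adjusted p = 0.0778). The share of all ends called with no minimum is not given here, and both slopes rest on few counts.

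At Ccnd1 the main end 7 stayed level, with 918 and 1093 scaled counts in the controls and 1286, 990, 913 and 1006 afterwards (slope -0.02 ± 0.03, adjusted p = 0.689). End 6, 64 nt upstream, rose from 64.4 and 54 to 49.9, 90.9, 92.9 and 120 (slope 0.14 ± 0.05, adjusted p = 0.0370). The 2, 4 and 8 h libraries were above both controls at this end and the 1 h library below both. The call was lost without control 2 (adjusted p = 0.0895) and without the 1 h (0.0721), 4 h (0.0550) or 8 h (0.176) library. The other 5 Ccnd1 ends had slopes from -0.14 to 0.11 and adjusted p from 0.223 to 0.608. Their counts were at most 76 in any library of the time course. With TMM ends 2 and 4 rose, at 0.20 (adjusted p = 0.0136) and 0.22 (adjusted p = 0.0286).

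**Figure D2:**
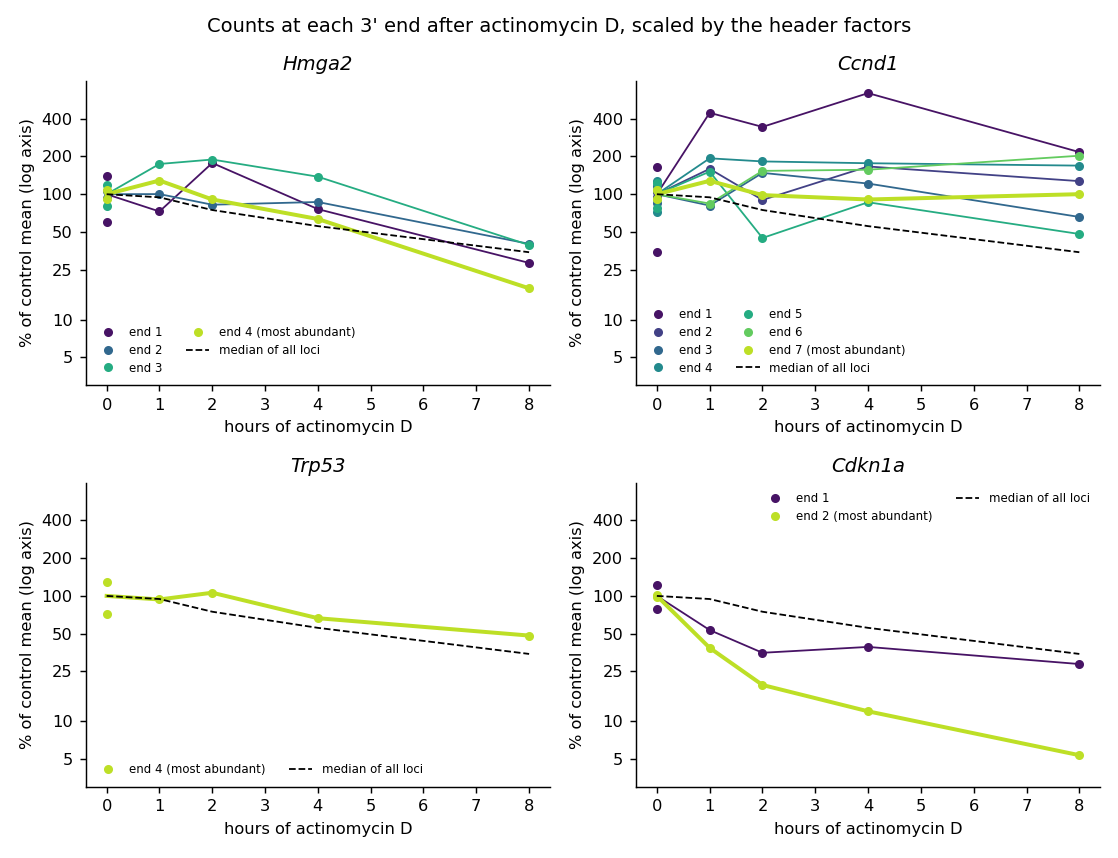
Scaled counts of each end with at least 60 counts, as a percentage of the mean of both controls (log axis), against hours of actinomycin D; points are single libraries, both controls are drawn at 0 h, lines start at their mean, and the dashed line is the median of 10730 loci. Cdkn1a end 2 falls to 5.36% at 8 h and end 1 to 28.6%, and Ccnd1 end 7 stays near 100%.

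Counts of 2 ends in the same library can be compared without any scaling. The share of Cdkn1a counts at end 1 was 2.97% (Wilson 95% interval 2.41 to 3.66) and 1.89% (1.47 to 2.43) in the controls, then 3.34% (2.43 to 4.56) at 1 h, 4.30% (2.93 to 6.27) at 2 h, 7.51% (5.18 to 10.8) at 4 h and 11.7% (7.45 to 18.0) at 8 h. It was higher in each later library, and the 4 h and 8 h intervals lie above those of both controls. These intervals cover counting error only, since reads from PCR are not independent molecules. The last share rests on 17 of 145 counts.

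The share of Hmga2 end 2 was 6.42% (5.40 to 7.62) and 6.13% (5.23 to 7.16) in the controls, 4.93% at 1 h, 5.57% at 2 h, 8.19% (6.82 to 9.81) at 4 h and 12.8% (9.70 to 16.8) at 8 h, the last from 44 of 343 counts. It dipped below the controls at 1 h and 2 h and stood above them at 4 h and 8 h. In Ccnd1 the 6 upstream ends together went from 17.2% and 14.7% to 16.5%, 19.9%, 25.1% and 20.6%, highest at 4 h.

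A test of the isoform by hours term over 3844 pairs of ends compared the 2 most abundant ends of each gene. It called the distal end lost faster in 3.3% of pairs and lost more slowly in 1.04%. Cdkn1a was among the former, with end 2 lost faster than end 1 by a slope difference of -0.32 ± 0.05 log2 per hour (edgeR, adjusted p = 0.0271). Of all pairs 5.00% had a lower value. As each of the 6 libraries was left out, the difference kept its sign and ran from -0.43 (without 8 h) to -0.28 (without control 2). The call itself was not stable: its adjusted p ran from 0.0439 to 0.128, and stayed under 0.05 only without the 2 h library. For Hmga2 the difference of end 4 against end 2 had the same sign, -0.16 ± 0.04, and did not pass (adjusted p = 0.0671, and 0.0396 with DESeq2). Ccnd1 end 7 against end 6 gave -0.15 ± 0.05 (adjusted p = 0.145). Trp53 had no second end with enough counts. When every end was set against the most abundant one, a comparison added after the data were seen, the Cdkn1a pair was the only one of 10 member pairs called (2.69% of 6387 pairs were called in this direction and 0.986% in the other).

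**Figure D3:**
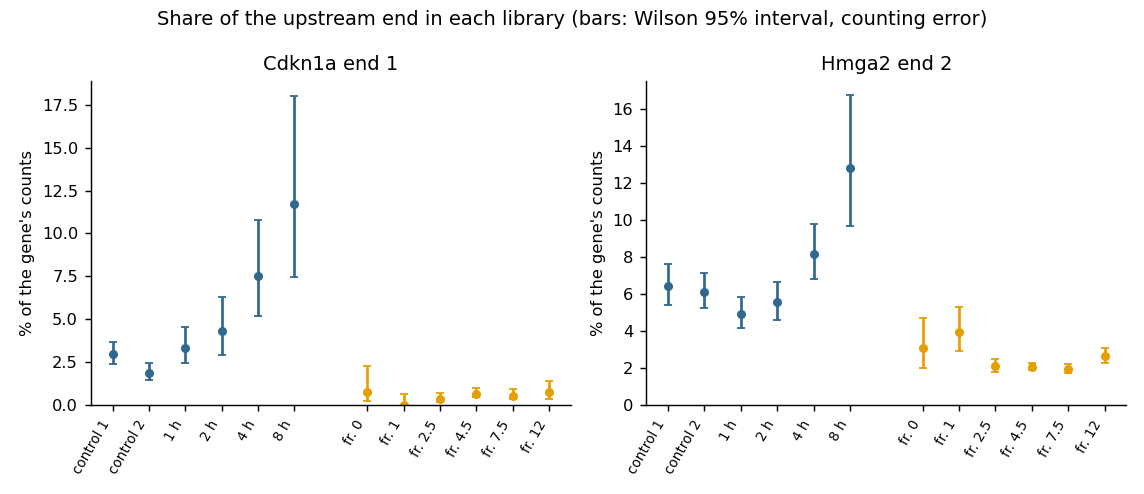
Percentage of the gene's counts at Cdkn1a end 1 (left) and Hmga2 end 2 (right) in each of the 12 libraries, time course in blue and gradient fractions in orange, with Wilson 95% intervals of the counting error. Both shares are highest at 8 h, at 11.7% and 12.8%, and every fraction lies below both controls.

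The authors' deposited table gives a half-life per site. In it the main ends have 0.729 for Cdkn1a, 2.77 for Hmga2, 3.67 for Trp53 and 6.22 for Ccnd1, the same order as above, beside a median of 2.88 over the 17970 sites that pass the authors' filter. Of the shorter forms, the authors' deposited table gives 1.73 for Cdkn1a end 1 and 3.64 for Hmga2 end 2. For 13 member ends the rate behind that value exceeded the rate of an exponential fit to the scaled counts by 0.1 per hour, so a fitted rate of 0 corresponds to 6.93 h. In the authors' deposited table the 4 member ends with a fitted rise have longer values, 11.03, 9.25 and 10.92 for Ccnd1 ends 1, 2 and 4 and the upper limit of 50 for Ccnd1 end 6.

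The second comparison asks where on the gradient each mRNA lay, that is, how many ribosomes it carried. Trp53 and Ccnd1 lay in the heaviest fractions, and Hmga2 and Cdkn1a in the middle ones. Scaled counts of a gene were expressed as shares over the 6 fractions.

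Trp53 had 2.22%, 2.35%, 9.56%, 8.51%, 15.7% and 61.6% of its scaled counts in fractions 0, 1, 2.5, 4.5, 7.5 and 12. The share in the last fraction was larger than in 97.2% of the 11132 loci with enough counts, for which the median was 24.8%. Ccnd1 had 2.67%, 2.45%, 9.70%, 10.8%, 28.6% and 45.7%, so 74.4% lay in the 2 heaviest fractions, against a median of 48.1%.

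Hmga2 had 2.16%, 2.44%, 20.5%, 41.9%, 21.2% and 11.8%. Its share in fraction 4.5 was larger than in 99.3% of loci, where the median was 17.8%. A peak in this fraction was seen in 14.2% of loci, and one in fraction 12 in 44.5%. Cdkn1a also peaked in fraction 4.5, with 5.21%, 5.62%, 29.3%, 32.1%, 18.1% and 9.72%. The 2 lightest fractions held 10.8% of Cdkn1a and between 4.57% and 5.12% of each of the other 3 genes. The median over loci was 11.2%, so Cdkn1a was near it and the other 3 genes were below it.

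As a mean number of ribosomes per mRNA, weighted by these shares, Trp53 had 9.22 ± 0.05 (counting error), Ccnd1 8.39 ± 0.05, Hmga2 5.43 ± 0.01 and Cdkn1a 4.76 ± 0.03, beside a median of 6.26 and quartiles of 5.09 and 7.35 over loci. The error covers read counting only, as each fraction was sequenced once. Hmga2 has the shortest coding sequence of the 4, 327 nt with the stop codon in the GENCODE model, followed by Cdkn1a with 480, Ccnd1 with 888 and Trp53 with 1173. Per 100 codons this came to 4.98 ribosomes for Hmga2, 2.97 for Cdkn1a, 2.83 for Ccnd1 and 2.36 for Trp53, which is the reverse order of coding length. The means vary less than the lengths and cannot exceed 12, so dividing by length itself favours this order. This value was not computed for other loci.

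Ends of a gene mostly shared 1 profile. All 4 Hmga2 ends peaked in fraction 4.5, and their means spanned 5.41 to 5.46 ribosomes per mRNA. The counting errors of these means were 0.28, 0.11, 0.12 and 0.01 for ends 1 to 4. The 2 Cdkn1a ends also both peaked there, end 1 with 61 counts at 5.36 ± 0.45 and end 2 at 4.75 ± 0.03. Of the 7 Ccnd1 ends 6 peaked in fraction 12 and end 3 in fraction 7.5, with means from 7.56 to 8.86. Trp53 was the exception. Its main end 4 had 62.6% of its scaled counts in fraction 12, whereas end 2, with 1, 5, 23, 23, 13 and 10 counts from light to heavy, had 41.4% in fraction 2.5 and 11.2% in fraction 12. End 3, with 0, 8, 16, 4, 5 and 2 counts, and end 1, with 0, 0, 3, 3, 3 and 0, were also most abundant in fraction 2.5, end 1 at the level of 3 counts. The 3 upstream ends together made up 8.33% (4.93 to 13.7) of Trp53 counts in fraction 1, 9.17% (6.86 to 12.2) in fraction 2.5 and 0.254% (0.145 to 0.443) in fraction 12. Their means were 4.31, 4.57 and 3.26 ribosomes per mRNA against 9.32 for end 4.

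**Figure D4:**
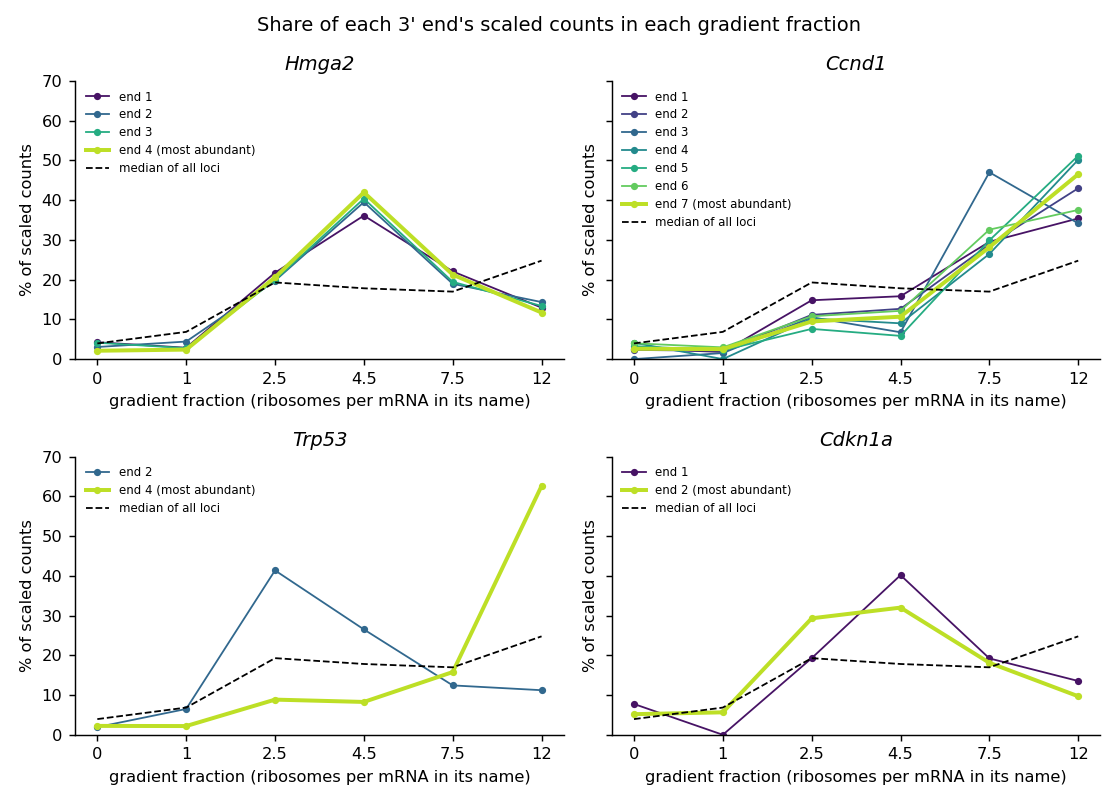
Percentage of each end's scaled counts in the 6 fractions, light to heavy, for ends with at least 60 counts; the dashed line is the median of 11132 loci. Trp53 end 4 and the Ccnd1 ends rise towards fraction 12, all 4 Hmga2 ends peak in fraction 4.5, and Trp53 end 2 peaks in fraction 2.5.

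The test of a linear slope over the rank of the fractions, relative to the other mRNAs (TMM), called 0 of the 4 gene totals, as did DESeq2, in a comparison where 4.87% of 11132 loci were called towards the light fractions and 0.53% towards the heavy ones. Slopes per fraction step were 0.45 ± 0.16 for Trp53 (edgeR, adjusted p = 0.112), 0.40 ± 0.17 for Ccnd1 (adjusted p = 0.202), 0.26 ± 0.28 for Hmga2 (adjusted p = 0.653) and -0.15 ± 0.23 for Cdkn1a (adjusted p = 0.760). Unadjusted p-values under 0.05 were seen for Trp53 (0.0095) and Ccnd1 (0.0268). Of all 11132 loci, 797 had such a p towards the heavy side and 1229 towards the light side. With the authors' factors in place of TMM, 1.09% of loci were called towards the light side and 40.2% towards the heavy side, and Trp53 (0.92, adjusted p = 0.0040) and Ccnd1 (0.88, adjusted p = 0.0056) were called while Cdkn1a turned to 0.29. Without fraction 0 Trp53 (0.71, adjusted p = 0.0254) and Ccnd1 (0.69, adjusted p = 0.0382) were called too. Over all loci, 480 were then called towards the heavy side, against 59 with every fraction kept. Towards the light side there were 926, against 542. Calls were thus more frequent in general without fraction 0, and those of Trp53 and Ccnd1 are not read as particular to these genes. The Hmga2 slope was 0.57 without fraction 12 (adjusted p = 0.223) and 0.13 without fraction 1 (adjusted p = 0.895), and a straight line is a poor summary of a profile with its peak in a middle fraction.

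In edgeR's test 0 of the 15 ends tested were called either, as with DESeq2, where 4.28% and 0.438% of 18484 ends were called towards the light and the heavy side. An unadjusted p under 0.05 was found for 6 of them: 5 Ccnd1 ends (2, 3, 4, 5 and 7) and Trp53 end 4, all towards the heavy side. Over all 18484 ends, 1245 had such a p towards the heavy side and 1936 towards the light side. With the authors' factors 8 ends were called towards the heavy side, every Ccnd1 end and Trp53 end 4. On that scale 40.2% of all loci were called towards the heavy side. Without fraction 0 there were 5, Ccnd1 ends 2, 4, 5 and 7 and Trp53 end 4, also towards the heavy side. The share over all ends is not given for these settings, so these counts are not read as particular to the members. Between ends of 1 gene, 0.0467% of 4284 pairs were called with the distal end lighter and 0.303% with it heavier, and 0 member pairs were called by edgeR or DESeq2, with 1 at an unadjusted p under 0.05 in edgeR. Among all 4284 pairs, 375 had such a p with the distal end heavier and 181 with it lighter. Trp53 end 4 lay heavier than end 2 by 0.86 ± 0.26 log2 per fraction step, a larger difference than in 99.9% of pairs, with an unadjusted p of 0.0097 and an adjusted p of 0.204 on 75 counts of end 2. Without fraction 12 this difference was 0.44 (adjusted p = 0.551), and it ran up to 1.19 without fraction 0 (adjusted p = 0.0884). DESeq2 gave 0.63 (adjusted p = 0.608). The differences were 0.10 ± 0.08 for Hmga2 end 4 against end 2, 0.02 ± 0.07 for Ccnd1 end 7 against end 2 and -0.24 ± 0.20 for Cdkn1a end 2 against end 1, all with adjusted p of 0.686 or more.

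**Figure D5:**
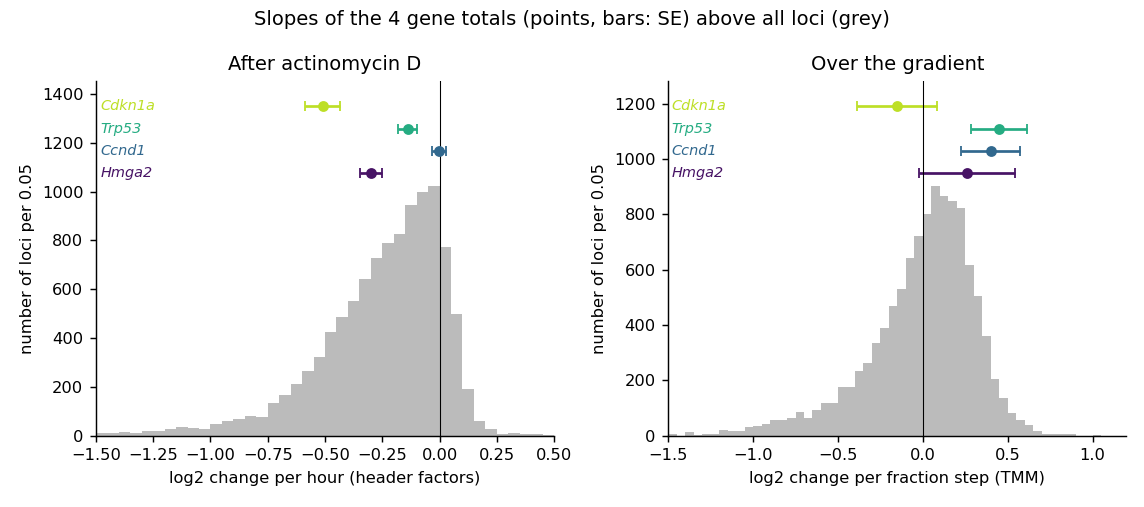
Number of loci by slope after actinomycin D (left, log2 per hour, 79 of 10731 loci outside the plotted range) and over the gradient (right, log2 per fraction step, 34 of 11132 outside), with the 4 gene totals as points and their SE as bars. After actinomycin D Cdkn1a lies at -0.51 and Ccnd1 close to 0, and over the gradient Trp53 and Ccnd1 lie on the right at 0.45 and 0.40.

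The 2 experiments held the 4 mRNAs at different levels. Hmga2 had 322 and 373 CPM in the controls, but 991, 2282 and 1230 in fractions 2.5, 4.5 and 7.5. Summed over the fractions and divided by the control mean, its scaled counts gave 27.3, more than in 99.3% of 7128 loci, whose median was 7.85 and quartiles 5.02 and 11.5. Trp53 gave 1.85, and only 2.97% of loci had a lower value. Ccnd1 gave 8.48 and Cdkn1a 4.72, the former within the quartiles and the latter just under them. The shares of upstream ends are given without a test. Cdkn1a end 1 held at most 0.796% of the gene's counts in any fraction, against 2.97% and 1.89% in the controls, and Hmga2 end 2 held at most 3.96%, against 6.42% and 6.13%. The 6 upstream Ccnd1 ends together held 13.1% to 17.2% in the fractions, against 17.2% and 14.7%. The 3 upstream Trp53 ends held 0.254% to 9.17%, against 0.979% and 0.305%.

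Some sites elsewhere had profiles close to those of the main ends. Likeness was Pearson's r over the 12 libraries of log2(scaled count + 0.5), centred within each experiment, among sites with at least 200 counts in both. The 2 highest values are given, out of 10879 sites for Hmga2 and Ccnd1 and 10881 for Trp53 and Cdkn1a. These values share the same libraries and scaling, and the median r was already 0.69 for Hmga2, 0.64 for Ccnd1, 0.69 for Trp53 and 0.58 for Cdkn1a. The closest to Hmga2 end 4 were a site on chromosome 18 (r = 0.993) and 1 on chromosome 10 at 82212749 on the minus strand (r = 0.990). For Ccnd1 end 7 they were on chromosome 2 at 12998610, minus strand (r = 0.995), and on chromosome 5 at 97274873, plus strand (r = 0.992). For Trp53 end 4 they were on chromosome 1 at 40504964 (r = 0.992) and on chromosome 3 at 108971370 (r = 0.988), both on the plus strand. For Cdkn1a end 2 they were on chromosome 6 at 66985095, minus strand (r = 0.987), and on chromosome 4 at 120202784, plus strand (r = 0.982). These sites had 4.94% and 12.4% of their control mean left at 8 h, a library that also entered r, so a low remainder follows from the choice.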

How the data were processed

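The authors' deposited table holds raw read counts at 33590 poly(A) sites in 12 2P-Seq libraries, mm9 positions, 1 dividing factor per library and a filter mark, per the file headers. Reads had been aligned with Bowtie according to the submitters' processing notes (version not given in these sources). Fraction columns were ordered by the numbers in their names and not matched to single sample titles. The deposited ribosomes per mRNA equalled the mean of those numbers weighted by scaled counts for 30164 of 30164 sites (within 1e-06).

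Sites in the 4 windows were summed per gene, and all others were joined into loci (ends within 2000 nt on a strand). Features with at least 60 counts over the 6 libraries were tested with edgeR 4.0.16 (quasi-likelihood, Benjamini-Hochberg over all features, adjusted p under 0.05) in R 4.3.3: slopes on hours with the header factors, slopes on fraction rank with TMM, and isoform by hours or rank with a term per library. DESeq2 1.42.0, other scalings, no minimum and left-out libraries were alternatives. The models were also run on simulated counts, with TMM for the slopes of ends and loci. The header factors used for the decay slopes were not part of that simulation. Half-lives came from log-linear (pseudocount 0.5) and exponential fits. Shares carry Wilson 95% intervals.

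All ends in the windows are named, those with at least 60 counts in full, as well as the 2 sites most alike to each main end. The members and lists were chosen with earlier results of these data known. No annotation of mm9 was used, so ends were not placed in exons or introns, and lists of other cell cycle genes and of cell type markers could not be applied. Motif searches used the APPRIS principal model with the longest 3' UTR.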

Additional observations from a re-analysis of the deposited data

How the results depend on the processing

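No paired analysis was possible because controls and fractions share numbers without sharing a source, and each treated time is 1 library. With TMM and RLE in place of the header factors, which both set slopes against the rest of the library, decay slopes of Ccnd1 (0.16 and 0.17) and Trp53 (0.025 and 0.038) turned positive, and 1 gene total, Ccnd1, rose instead of 0. Under the same pair of scalings the ends gave 0.10 and 0.10 (Ccnd1 end 3), 0.013 and 0.018 (Ccnd1 end 5), 0.14 and 0.14 (Ccnd1 end 7), 0.0026 and 0.0072 (Hmga2 end 2), 0.0017 and 0.0057 (Hmga2 end 3), and 0.014 and 0.020 (Trp53 end 4), all positive, and Cdkn1a end 1 kept its sign at -0.073 and -0.069 but was not called. With 1 time course library left out, slopes ran from -0.017 to 0.0097 for Ccnd1, from -0.33 to -0.16 for Hmga2 and from -0.17 to -0.11 for Trp53. The number of gene totals falling ran from 1 (without 8 h) to 3, and the share of all loci falling without 8 h is not given. Ccnd1 end 3 ran from -0.081 to 0.11 and Hmga2 end 3 from -0.22 to 0.13. The Cdkn1a isoform difference ran from -0.43 to -0.28. The Hmga2 isoform difference was called by DESeq2 alone (-0.16). Over all pairs, 127 and 40 calls (distal faster, distal slower) became 264 and 71 with DESeq2 and 0 and 0 without the 8 h library. Over the gradient the header factors gave 0.88 for Ccnd1, 0.92 for Trp53 and 0.29 for Cdkn1a, so 2 gene totals lay on the heavy side, and 0.38 and 0.29 for Cdkn1a ends 1 and 2 and 0.19 for Trp53 end 2. With the number in the fraction name as the covariate Trp53 was called (0.21 per ribosome, 1 gene total), and Hmga2 ends 1, 2 and 3 turned to -0.044, -0.020 and -0.031. The share of all loci called with that covariate is not given, so the call is not read as particular to Trp53. With 1 fraction left out, gene totals called heavy ran from 0 to 2, and slopes ran from 0.35 to 0.69 (Ccnd1), from 0.22 to 0.71 (Trp53), from 0.13 to 0.57 (Hmga2) and from -0.23 to 0.087 (Cdkn1a). The isoform difference ran from -0.036 to 0.074 for Ccnd1 and from 0.44 to 1.19 for Trp53. For ends, these ranges were -0.26 to 0.21 and -0.26 to 0.072 (Cdkn1a ends 1 and 2), -0.11 to 0.31, -0.010 to 0.34 and -0.072 to 0.30 (Hmga2 ends 1, 2 and 3). Calls over all loci (light, heavy) went from 542 and 59 to 878 and 147 with DESeq2 and 894 and 188 with no minimum, and with 1 fraction left out they ran from 185 and 12 (without 7.5) to 926 and 480 (without 0). The cause of these shifts was not tested. Every setting run kept direction and side of the threshold for the Cdkn1a total after actinomycin D and the Hmga2 total over the gradient. Depth limits the shorter forms: Cdkn1a end 1 has 17 counts at 8 h, and the Trp53 upstream ends have 0 to 4 there.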
